A study of Mus musculus with 27 samples.

Results

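The livers of 13 male C57BL/6J mice, 6 fed a calorie-restricted diet (CR) and 7 fed a medium fat diet (MF), were compared across all genes. These 13 were all the CR- and MF-fed mice among 27 mice on 4 diets, and they were chosen by their diet label alone. CR-fed mice received AIN-93W-CR at 30% restriction, and MF-fed mice ate AIN-93W-MF, with 25% of its energy from fat, ad libitum. The 7 control mice (C), which ate AIN-93W ad libitum, serve as the background. The 7 mice that alternated weekly between MF feeding and restriction entered the fit only through their spread. Their arrays also took part in the normalization and in the choice of the probe sets and genes tested. All mice were housed individually and began their diet at 9 weeks of age. They were sacrificed at 12 months after a mock treatment that every group shared, a 4 h fast, a gavage of 0.5% carboxymethyl cellulose and a further 6 h without food. CR-fed mice were given their portion once a day, in the afternoon. Their food was enriched in vitamins and minerals, which the paper did to match their micronutrient supply to that of C-fed mice. CR and MF therefore differ in energy intake, fat content, meal timing and the micronutrient content of the food, and these cannot be told apart. Only males of a single strain were sampled.

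Each mouse gave 1 Affymetrix Mouse Gene 1.1 ST array, and each probe set has a log2 intensity from robust multiarray average (RMA). Where a gene had several probe sets, that of highest mean stood for it, and 13603 of 18820 genes lay above an intensity of 20 (4.32 log2 units) on at least 5 arrays. Array medians lay between 5.21 and 5.27 log2 units, and Pearson's r between pairs of arrays over all probe sets between 0.982 and 0.992. The label of liver fits the markers measured, since 8 of the 9 hepatocyte markers listed were tested, with mean levels of 12.71 to 12.78 log2 units in CR and 12.52 to 12.69 in MF. Differences are log2 fold changes, CR minus MF, with a standard error (SE). A gene was called when its Benjamini-Hochberg adjusted p from limma was under 0.05.

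In the fed liver, insulin drives the conversion of sugar into fatty acids and cholesterol, which leave in lipoproteins or stay in the cell as triglyceride droplets. During food shortage the liver turns instead to fat oxidation and to glucose made from amino acids. The rodent liver also differs between the sexes, because males release growth hormone in pulses and females more continuously, and whole families of cytochromes P450, transporters and urinary proteins follow that pattern. Gene lists for these functions, for stress and defence, and for the cell types a liver sample can hold are described in turn.

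Diet separated the groups over a large part of the genome. Of 13603 genes, 2690 were called (19.8%). In CR-fed mice 1166 of them were higher (8.57% of all genes) and 1524 were lower (11.2%). Most differences were small, with a median absolute log2 fold change of 0.35 among called genes, and 76 rose and 104 fell by at least 2-fold. In 395 genes (2.9%) every CR-fed mouse lay above every MF-fed mouse, and in 560 (4.12%) below. Of those 955 genes 933 were called. The direction split depended on the scaling between arrays, because 43.3% of the calls were higher in CR as deposited but 54.7% after each array was centred on its median, which moved the median of all genes from -0.0024 to 0.0309. Against the C group, 2382 genes (17.5%) were called in CR-fed mice. Limma called none (0.0%) in MF-fed mice, where 464 genes had an unadjusted p under 0.05. The comparisons with C share the CR or MF mice with the main one, so their values are given side by side and not as further evidence.

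**Figure D1:**
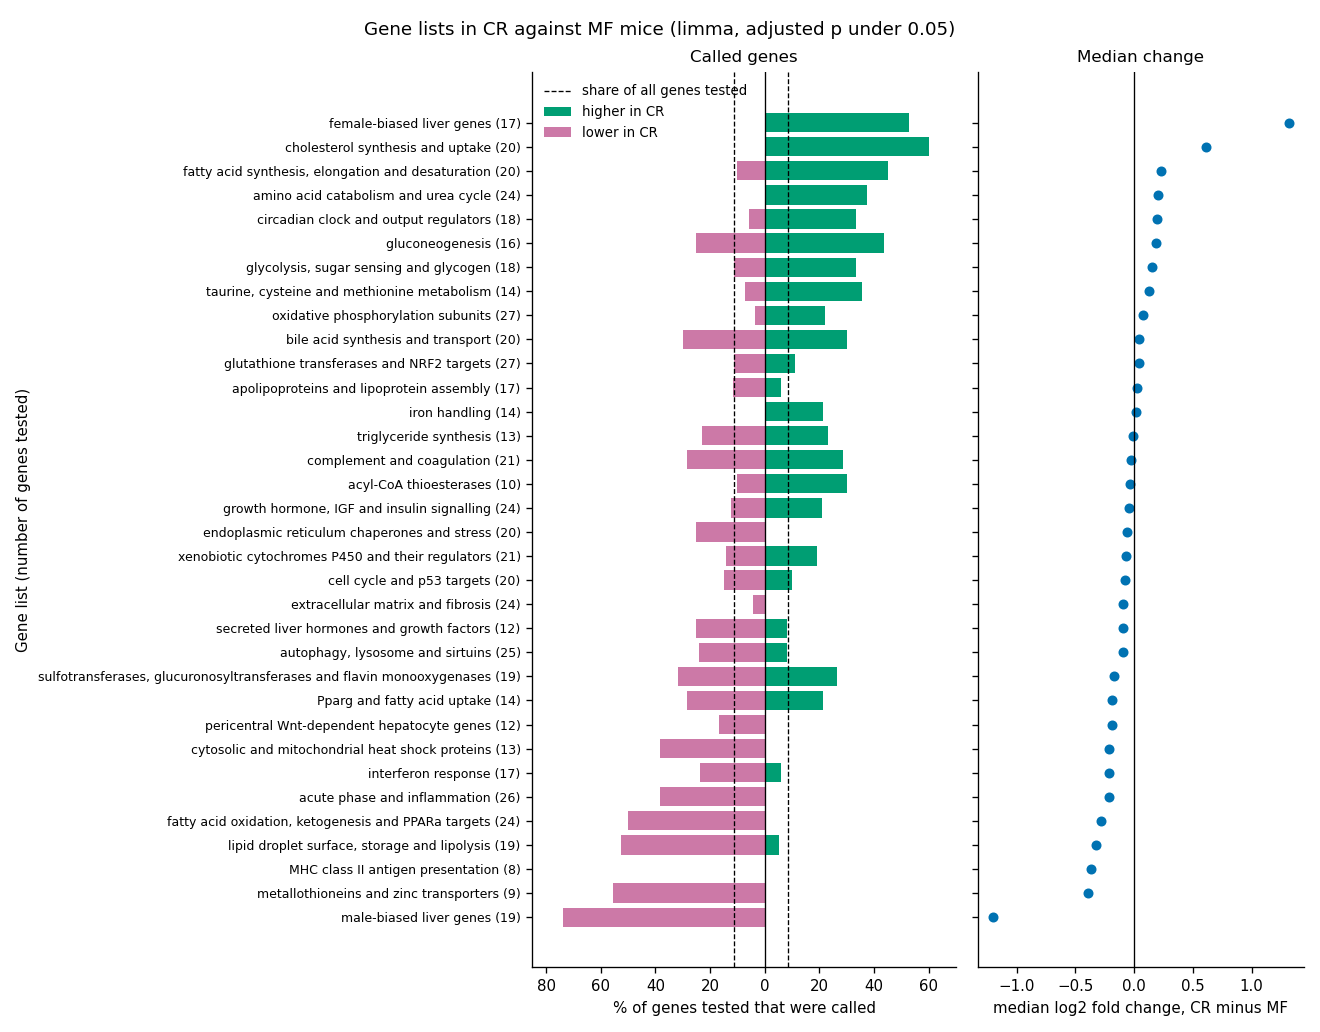
Gene lists in CR- against MF-fed mice, sorted by median change; the number of genes tested stands behind each name. Left, bars give the percentage of the genes tested that limma called lower (to the left) or higher (to the right) in CR, with dashed lines at the shares over all 13603 genes, 11.2% and 8.57%. Right, points give the median log2 fold change of each list, from -1.20 for male-biased genes to 1.32 for female-biased genes.

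Several of the widest differences lay in genes with a sex bias in liver. Of 19 male-biased genes tested, 14 were lower and none higher in CR, with a median log2 fold change of -1.20. Of 17 female-biased genes, 9 were higher and none lower, with a median of 1.32, against -0.0024 over all genes tested. The intensity filter kept 17 of 20 female-biased genes with a value and 19 of 20 male-biased ones. The CR arrays alone were enough to pass it, so a gene high only in CR could enter. The counts, medians and list levels are therefore a description and not a test. The 2 lists occupied separate ranges in the mice, since the mean level of the male-biased list was 7.77 to 8.47 log2 units in CR and 9.07 to 10.82 in MF. For the female-biased list it was 8.39 to 8.70 in CR and 6.57 to 7.60 in MF. In MF against C the medians of the same lists were -0.16 and 0.05.

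Cyp4a12a, a fatty acid hydroxylase that in mouse makes the vasoactive lipid 20-HETE, showed the largest change among called genes. Its lowest, median and highest levels were 4.34, 4.95 and 7.09 log2 units in CR and 10.91, 11.69 and 12.16 in MF. It fell 80.0-fold (log2 fold change -6.32, SE 0.29, adjusted p = 9.75e-15), and all CR-fed mice lay below all MF-fed mice. CR replicates 4, 2 and 6 were at 4.34, 4.47 and 4.78, close to the intensity of 20 (4.32), so background may limit this fold. The near-identical neighbour of Cyp4a12a in the family, Cyp4a12b, ran from 4.22 to 6.49 in CR and from 9.82 to 11.44 in MF (-5.88, SE 0.28). Probes of such close copies can read each other's RNA, so the pair is not 2 independent results. The same holds for Mup6, a major urinary protein that carries pheromones, with 6.34, 7.33 and 9.01 in CR and 11.44, 11.61 and 12.05 in MF (18.0-fold lower, adjusted p = 2.97e-11). Serpina4-ps1, a serpin pseudogene, and Hsd3b5, a steroid dehydrogenase of male liver, were lower by 4.63 and 4.45 on the log2 scale. Both overlapped between groups, because MF replicate 4 held only 6.24 for Serpina4-ps1 and 3.20 for Hsd3b5, while the MF medians were 9.43 and 8.00. In 5 of the 6 CR-fed mice Hsd3b5 was under the intensity of 20, so its fold is limited by background. Other large losses with groups apart were Elovl3, an elongase of very long fatty acids (-3.15, SE 0.36), and Susd4, a complement regulator (-2.85, SE 0.33).

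In the opposite direction, Cyp2b13, a cytochrome P450 of female liver, had the largest gain. It lay at 8.90, 9.96 and 10.23 log2 units in CR and at 2.79, 3.70 and 7.00 in MF, a 50.8-fold difference (5.67, SE 0.45, adjusted p = 9.3e-10). Since 4 of 7 MF-fed mice were under the intensity of 20, background limits this fold too, and the MF mouse at 7.00 was again replicate 4. In C-fed mice Cyp2b13 ran from 2.61 to 4.66. Slc22a26 and Slc22a27, related members of the organic anion transporter family, rose 15.8-fold (3.98, SE 0.34) and 7.04-fold (2.82, SE 0.41). Nipal1, a magnesium transporter relative, rose 4.71-fold, and Cux2, a transcription factor that represses male-biased genes in female liver, rose 3.93-fold. Cux2 varied little within a group, with 6.41 to 6.92 in CR and 4.50 to 4.87 in MF (1.97, SE 0.09, adjusted p = 9.75e-15).

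Cyp2b9, the closest relative of Cyp2b13, was chosen here after its values were seen, because the pair shares almost its whole promoter. The 250 bases before each start are shown from RefSeq (GRCm38.p6), with capitals at the positions where the 2 promoters differ. Cyp2b13 lies on chromosome 7, plus strand, at chr7:26061245-26061494, and Cyp2b9 at chr7:26173159-26173408, also on the plus strand.
Cyp2b13: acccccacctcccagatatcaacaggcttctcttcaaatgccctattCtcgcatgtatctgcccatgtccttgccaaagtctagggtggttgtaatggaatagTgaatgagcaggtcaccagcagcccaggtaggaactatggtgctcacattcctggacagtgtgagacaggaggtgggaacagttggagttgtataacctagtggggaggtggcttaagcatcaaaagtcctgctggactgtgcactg
Cyp2b9: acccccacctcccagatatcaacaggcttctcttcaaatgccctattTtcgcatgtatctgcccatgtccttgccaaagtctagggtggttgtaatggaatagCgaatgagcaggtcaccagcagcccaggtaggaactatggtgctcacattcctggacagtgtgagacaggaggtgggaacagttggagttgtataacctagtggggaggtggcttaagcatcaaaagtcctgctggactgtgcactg
Of the 250 bases 248 were identical (99.2%), and the differences from Cyp2b13 to Cyp2b9 are C48T and T104C, with positions counted from 1 at the 5′ end of the window. In the MF-fed mice replicates 6, 2 and 1 were the lowest and replicate 4 the highest for both genes. Cyp2b9 was high in CR (12.33, 12.60 and 12.75 log2 units) but also in most MF-fed mice (8.62, 11.84 and 12.11), and it reached from 4.96 to 12.00 in C. Its log2 fold change of 1.51 (SE 0.89, adjusted p = 0.257) was not called, although every CR-fed mouse lay above every MF-fed mouse. The probes of the 2 genes may share signal, and how much was not tested.

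**Figure D2:**
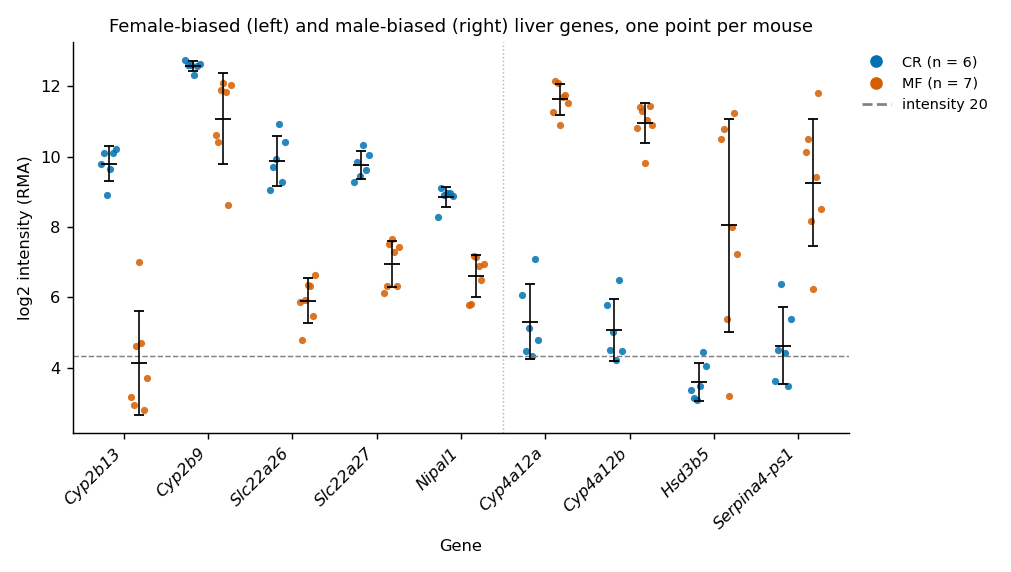
Female-biased genes (left of the dotted line) and male-biased genes (right), with 1 point per mouse on a log2 intensity axis; black bars give the mean and SD of 6 CR- and 7 MF-fed mice, and the dashed line marks an intensity of 20. The groups do not overlap for Cyp4a12a (4.34 to 7.09 against 10.91 to 12.16) or Cyp2b13 (8.90 to 10.23 against 2.79 to 7.00), while Hsd3b5 in MF spans from 3.20 to 11.26.

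Genes of the hormone pathways were called in both directions. Of 24 genes of growth hormone, IGF and insulin signalling, 5 were higher and 3 lower, with a median of -0.05. The share that was lower is near the 11.2% of all genes tested. Lepr, the leptin receptor, rose 4.84-fold, from 7.12, 7.34 and 8.00 in MF to 9.19, 9.63 and 10.48 in CR (2.28, SE 0.25, adjusted p = 2.18e-07). Igfbp1 and Igfbp2, which bind insulin-like growth factors in blood, rose 3.49-fold and 2.53-fold, and every CR-fed mouse lay above every MF-fed mouse for both. Irs2, an adaptor of the insulin receptor, rose 1.65-fold. Of genes outside the naming rule, picked after their values were seen, Igf1 itself (-0.05, SE 0.05, adjusted p = 0.494) and Stat5b, which relays the growth hormone signal (0.01, SE 0.06, adjusted p = 0.926), were not called.

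Most of the called genes of the lipid droplet were lower in CR. Of 19 tested, 10 fell and 1 rose, with a median of -0.32, and the list's mean level was 8.23 to 8.42 log2 units in CR against 8.46 to 9.44 in MF, with no overlap. Cidec, which fuses droplets into larger ones, measured 5.26, 5.47 and 6.06 in CR and 6.19, 9.80 and 10.78 in MF. It fell 10.9-fold (-3.44, SE 0.63, adjusted p = 0.000234), and it spread over 4.59 log2 units among the MF-fed mice. Cidea, of the same family, lay at 3.33, 3.70 and 3.84 in CR and at 4.04, 6.58 and 8.67 in MF (-2.69, SE 0.67). All 6 CR-fed and 2 of 7 MF-fed mice were under the intensity of 20, so the CR level of Cidea is known only as an upper bound. Fitm1, which helps droplets bud from the endoplasmic reticulum, separated the groups more evenly, at 7.79, 8.42 and 8.87 in CR and 9.94, 10.62 and 10.86 in MF (4.32-fold lower, SE 0.20, adjusted p = 3.58e-08). The single member that rose was Pnpla3, a lipase-like droplet protein that insulin and sugar induce, by 2.78-fold (1.48, SE 0.22).

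Synthesis and uptake of triglyceride did not move one way. Of 13 genes of triglyceride synthesis, 3 rose and 3 fell. Gpam, the first step of glycerolipid synthesis, and the phosphatidate phosphatases Lpin1 and Lpin2 rose 1.84-, 1.94- and 1.50-fold. Mogat1, a monoacylglycerol acyltransferase, fell 3.71-fold, with 5 of 6 CR-fed mice under the intensity of 20. Of 14 genes of Pparg and fatty acid uptake, 3 rose and 4 fell, led by Acsl4, an acyl-CoA synthetase for polyunsaturated fatty acids (0.75, SE 0.09), and Fabp2, an intracellular fatty acid carrier (-0.94, SE 0.15). Of 17 apolipoproteins and lipoprotein assembly genes, 1 rose and 2 fell, namely Apoa4 (-0.54, SE 0.13) and the cholesterol exporter Abca1 (-0.27, SE 0.07). The 1 that rose, the carrier Apom, lost its call without CR replicate 1, 4 or 5 or MF replicate 3, 4 or 5. The count of 1 became 2 without MF replicate 6. Of 10 acyl-CoA thioesterases, 3 rose and 1 fell, the latter count lying between 0 and 2 when single mice were left out. It was 0 without CR replicate 5 or 6 or MF replicate 2, 5 or 7 and 2 without MF replicate 6.

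Most of the called genes of fatty acid and cholesterol synthesis had higher transcript levels in CR. Of 20 genes of fatty acid synthesis, elongation and desaturation, 9 rose and 2 fell (median 0.23). The second fall lost its call without any of CR replicates 2, 4, 5 and 6 or MF replicates 2, 3, 4, 5 and 7, which left 1. Acly, which makes cytosolic acetyl-CoA from citrate, lay at 11.30, 11.63 and 12.07 in CR and 9.31, 9.66 and 10.01 in MF. It rose 3.91-fold (1.97, SE 0.20, adjusted p = 9.35e-08). Fasn, the fatty acid synthase, was at 12.15, 12.40 and 12.79 in CR and 10.92, 11.01 and 11.20 in MF, 2.64-fold higher (1.40, SE 0.15). Elovl6, which extends the product of Fasn, was 2.42-fold higher. For all 3 every CR-fed mouse exceeded every MF-fed mouse. Elovl3, described above, went the other way. Outside the naming rule, Acaca, the rate-limiting carboxylase, was called at 1.21, whereas the desaturase Scd1 (0.13) and the transcription factor Srebf1 (0.24) were not called.

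All 20 tested genes of cholesterol synthesis and uptake had a positive change, 12 were called higher and none lower, and the median was 0.61. Pmvk, a kinase of the mevalonate pathway, had the largest gain, from 7.21, 7.32 and 7.55 in MF to 8.42, 8.97 and 9.27 in CR (2.98-fold, SE 0.17, adjusted p = 1.67e-07). Lss, which closes the first sterol ring system, rose 2.54-fold (1.35, SE 0.20), from 7.96, 8.19 and 8.45 to 8.92, 9.60 and 10.17. Insig1, which holds the sterol sensor complex in the endoplasmic reticulum, rose 2.32-fold, and Sqle, the squalene epoxidase, 2.15-fold. Of these 4 only Insig1 overlapped between groups. Against C, 12 of the 20 were also called higher in CR, and the median in MF against C was 0.05.

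Promoters of these genes were searched for the sterol regulatory element TCACNCCAC on both strands in the 250 bases before the start. Of 16 list genes with a RefSeq promoter, 1 held it (6.25%), against 1.05% of the 32851 promoters searched. A gene counted when any of its promoters matched, whereas the 1.05% is per promoter, so the shares differ in unit. That gene is Hmgcs1, an early enzyme of the pathway, named here after its values were seen, and its stretch at chr13:119690154-119690282, plus strand, GRCm38.p6, is shown with the match in capitals.
Hmgcs1: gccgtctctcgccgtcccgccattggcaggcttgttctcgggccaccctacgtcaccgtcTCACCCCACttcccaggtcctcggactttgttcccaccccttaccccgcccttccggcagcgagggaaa
Hmgcs1 rose 1.73-fold (0.79, SE 0.27, adjusted p = 0.0393), with 9.59, 10.10 and 10.93 in CR and 8.74, 9.53 and 9.80 in MF, and the groups overlapped. Pmvk and Lss, with larger gains, held no such letters in this window. Of 16 fatty acid synthesis genes with a promoter, 1 held the match.

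**Figure D3:**
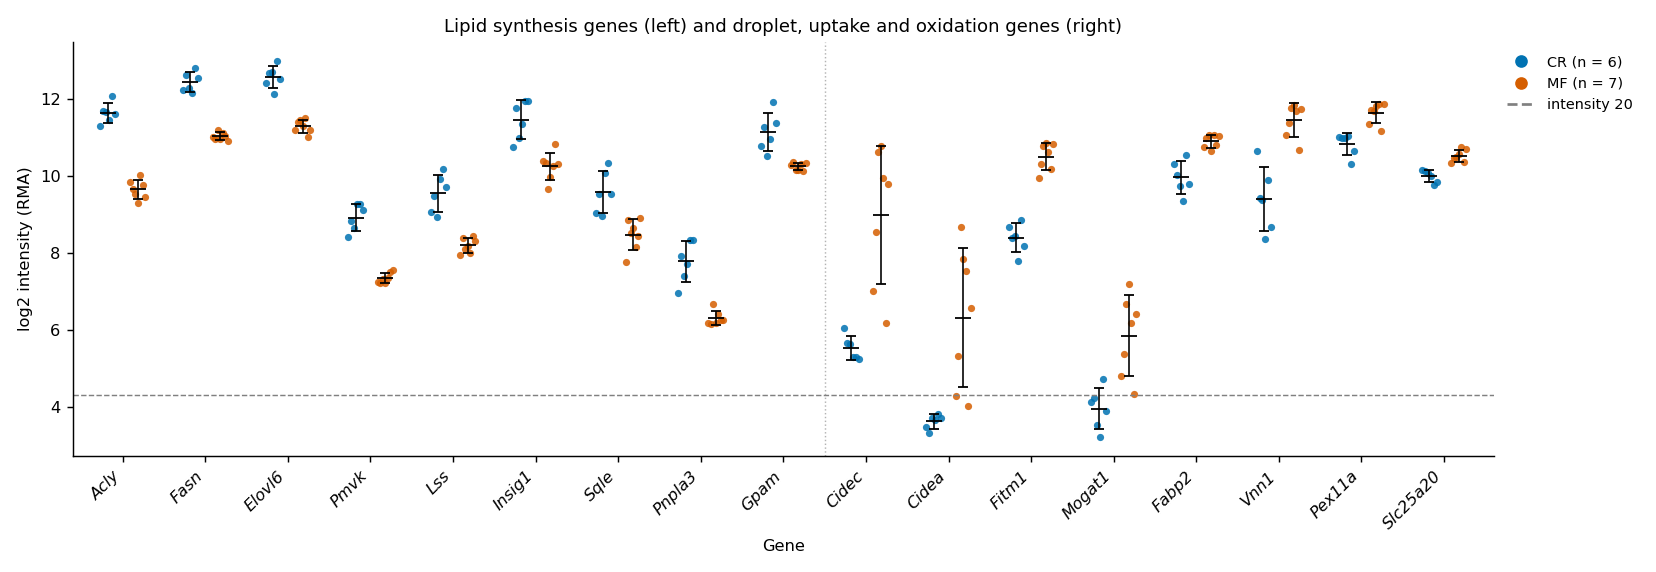
Genes of lipid synthesis (left of the dotted line) and of droplets, uptake and oxidation (right), with 1 point per mouse on a log2 intensity axis; black bars give the mean and SD of 6 CR- and 7 MF-fed mice, and the dashed line marks an intensity of 20. Acly in CR (11.30 to 12.07) lies above MF (9.31 to 10.01), while Cidec in CR (5.26 to 6.06) lies below a wide MF range (6.19 to 10.78).

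Fatty acid oxidation, ketogenesis and PPARa targets were lower in CR as far as they were called. Of 24 tested, 12 fell and none rose, with a median of -0.28. In 1 member every CR-fed mouse lay above every MF-fed mouse. With only the CR and MF arrays, after median centring or after cyclic loess, 1 was called higher. The 12 lay between 9 and 14 when single mice were left out, with 9 without MF replicate 5. The widest member was Vnn1, a pantetheinase that responds to PPARa, at 8.36, 9.40 and 10.66 in CR and 10.68, 11.68 and 11.84 in MF (-2.05, SE 0.30, adjusted p = 1.82e-05). Pex11a, a peroxisome division protein, fell 1.75-fold and Slc25a20, the mitochondrial carnitine carrier, fell 1.44-fold, both with groups apart. Outside the naming rule, Cpt1a, which admits fatty acids to mitochondria, fell by 0.48 (SE 0.06) and the receptor Ppara by 0.37 (SE 0.08). The Ppara targets Cyp4a14 (0.56, SE 0.42) and Pdk4 (0.24, SE 0.46) were not called. In MF against C the list's median was 0.06.

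More genes of glucose and amino acid metabolism rose than fell. Of 16 gluconeogenesis genes, 7 rose and 4 fell (median 0.18). Ppargc1a, the coactivator that switches this programme on, rose 4.12-fold, from 7.06, 7.97 and 8.44 in MF to 9.74, 9.99 and 10.15 in CR (2.04, SE 0.16, adjusted p = 1.47e-09). Got1, the cytosolic aspartate aminotransferase, rose 2.59-fold, from 10.92, 11.20 and 11.99 to 12.65, 12.75 and 12.97. In C-fed mice Got1 lay in between, at 11.77, 12.04 and 12.29. The regulators Sik1 and Klf15 rose 1.95- and 1.71-fold. Among the enzymes, Pck1 (0.51, SE 0.10) and G6pc (0.65, SE 0.16), picked after their values were seen, were also called. The 4 that fell include the glycerol channel Aqp9 and pyruvate carboxylase Pcx, also picked so, at -0.40 and -0.32.

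Of 18 genes of glycolysis, sugar sensing and glycogen, 6 rose and 2 fell, and the share that fell is near the 11.2% of all genes tested. Ppp1r3g, which brings a phosphatase to glycogen to promote its synthesis, rose 10.6-fold, from 5.36, 5.79 and 6.34 to 8.73, 9.31 and 9.80 (3.41, SE 0.25, adjusted p = 3.36e-10). Pklr, the liver pyruvate kinase, and Tkfc, an enzyme of fructose breakdown, rose 1.38- and 1.37-fold. Pfkfb3, which makes an activator of glycolysis, fell 1.96-fold (-0.97, SE 0.21). Slc2a4, the insulin-dependent glucose transporter best known from muscle and fat, was on no list and rose 4.19-fold, with 4.44, 4.70 and 5.22 in MF and 6.16, 6.92 and 7.42 in CR.

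Amino acid breakdown was one-sided, with 9 of 24 genes called higher and none lower (median 0.20). Hal, the first step of histidine breakdown, stood at 11.38, 11.43 and 11.51 in CR and 9.94, 10.57 and 11.05 in MF (1.80-fold higher, adjusted p = 3.17e-05). The tyrosine aminotransferase Tat and the urea cycle enzyme Asl rose 1.59- and 1.50-fold. Of 14 genes of taurine, cysteine and methionine metabolism, 5 rose and 1 fell. Cth and Cbs, the enzymes that pass sulfur from homocysteine to cysteine, rose 1.94- and 1.47-fold, and Slc6a6, the taurine transporter, 1.67-fold. Bhmt, which remethylates homocysteine, fell 2.60-fold, from 12.14, 12.66 and 12.77 in MF to 10.19, 11.10 and 12.26 in CR (adjusted p = 0.000391). The CR-fed mice were uneven for Bhmt, and none lay near that median. CR replicates 1, 3 and 5 were at 12.26, 11.84 and 12.15, close to MF, and replicates 2, 4 and 6 at 10.27, 10.19 and 10.35. Among the largest gains on no list were Acmsd, which diverts tryptophan breakdown from NAD synthesis (5.35-fold, SE 0.22), and Etnppl, which degrades phosphoethanolamine (3.72-fold, SE 0.26). Of 27 subunits of oxidative phosphorylation, 6 rose and 1 fell, none by more than 0.28 on the log2 scale. The 6 became 3 without CR replicate 2 or MF replicate 3, 3 with only the CR and MF arrays and 9 after median centring. The 1, Ndufb3, lost its call without CR replicate 1 or 4 or MF replicate 2, 5 or 7, which left 0.

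**Figure D4:**
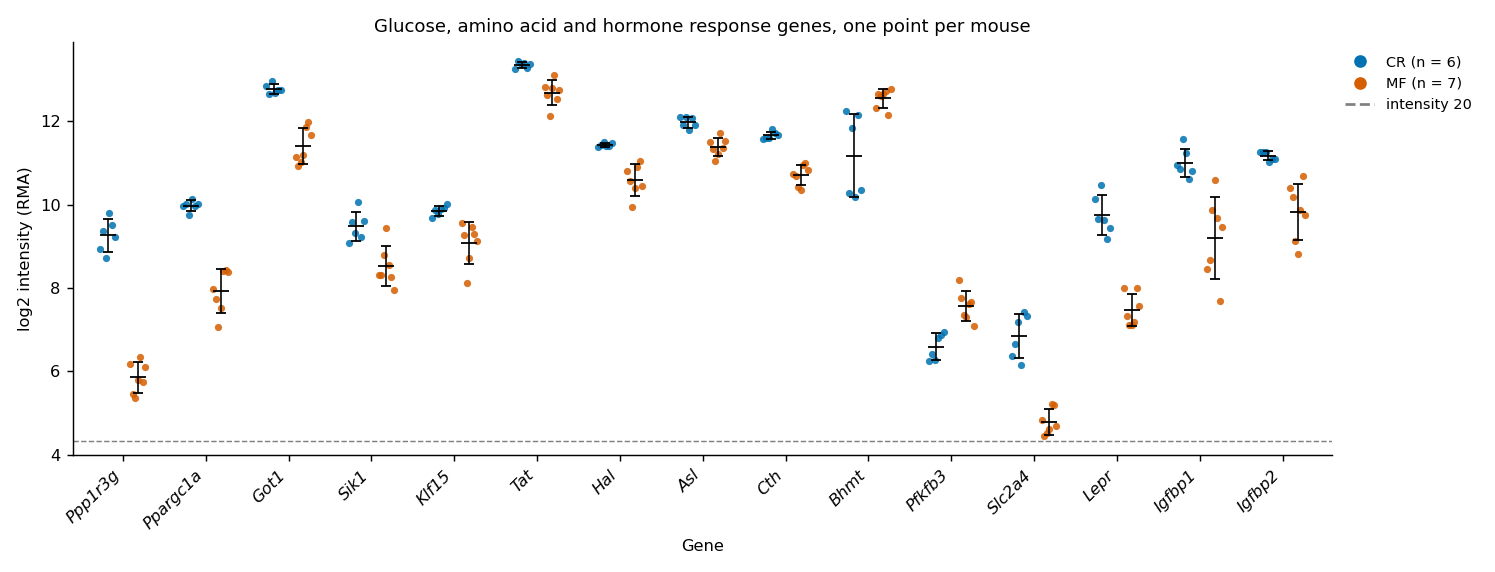
Genes of glucose and amino acid metabolism and of hormone response, with 1 point per mouse on a log2 intensity axis; black bars give the mean and SD of 6 CR- and 7 MF-fed mice, and the dashed line marks an intensity of 20. Ppp1r3g and Ppargc1a in CR (8.73 to 9.80 and 9.74 to 10.15) lie above MF (5.36 to 6.34 and 7.06 to 8.44), while Bhmt is lower in CR and overlaps.

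Clock genes and secreted factors changed in part. Of 18 circadian clock and output genes, 6 rose and 1 fell, the latter 2 without CR replicate 1 or MF replicate 3 or 4. Noct, a rhythmic phosphatase, rose 2.04-fold with groups apart, and the repressor Cry1 rose 1.66-fold. Bhlhe41, a repressor near background in 5 of 6 CR-fed mice, was lower by 0.82. All mice were sampled in 1 schedule of fasting and gavage, and CR-fed mice alone had a fixed daily meal, so a shift of phase, an effect of meal timing and a change of level cannot be told apart. Of 12 secreted liver hormones and growth factors, 1 rose and 3 fell. Inhbe, which encodes activin E, fell 4.19-fold, from 10.06, 10.48 and 10.94 to 7.86, 8.31 and 9.07 (-2.07, SE 0.18, adjusted p = 4.43e-09). Hgf, a growth factor made by stellate cells, fell 1.29-fold. The 1 that rose, Angptl8, lost its call without CR replicate 2 or 6 or MF replicate 4 or 7, which left 0, and the count was 2 without MF replicate 6.

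Bile acid genes split evenly, with 6 of 20 higher and 6 lower. Slc51b, a subunit of a basolateral bile acid exporter, rose 2.89-fold, from 5.06, 5.70 and 5.95 in MF to 6.28, 7.24 and 7.87 in CR (1.53, SE 0.20). Cyp39a1, an oxysterol hydroxylase with a female bias, rose 2.49-fold, and Cyp7b1, an oxysterol hydroxylase with a male bias, fell 2.71-fold, both with groups apart. Of 21 xenobiotic cytochromes P450 and regulators, 4 rose and 3 fell, the latter 5 without MF replicate 4. Cyp2c39 and Cyp2c38 rose 2.58- and 2.17-fold and Cyp2f2, a periportal enzyme, fell 1.62-fold. Of 19 sulfotransferases, glucuronosyltransferases and flavin monooxygenases, 5 rose and 6 fell, led by Fmo2 (1.68, SE 0.21) and by Sult2a8, a bile acid sulfotransferase (-2.01, SE 0.29). Of 27 glutathione transferases and NRF2 targets, 3 rose and 3 fell. The 3 that rose were Gsta4, Gstt3 and the exporter Abcc4, and they were 5 without MF replicate 3 or 4. The called shares of this list are near those of all genes tested, as are those of the apolipoprotein list and of the cell cycle and p53 list. The share of the P450 list that fell is also near that of all genes tested. So are the shares of the fatty acid synthesis and thioesterase lists that fell and of the secreted hormone list that rose.

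Acute phase and inflammation genes were lower in CR where called, at 10 of 26 with none higher (median -0.22). Saa2, an apolipoprotein made in inflammation, lay at 6.12, 7.00 and 8.41 in CR and at 7.51, 10.94 and 12.65 in MF, 13.0-fold lower (-3.70, SE 0.74, adjusted p = 0.000608). Lcn2, which binds bacterial iron carriers, lay at 8.52, 9.07 and 9.79 in CR and 8.58, 11.88 and 13.10 in MF (-2.24, SE 0.63). Both overlapped because MF replicate 6 stayed at the CR level, at 7.51 for Saa2 and 8.58 for Lcn2. Orm3, an acute phase glycoprotein, fell by 2.08 (SE 0.51), with 5.73 in that mouse. Saa2 and Orm3 have close copies in the genome whose RNA their probes may also read. Steap4, an iron and copper reductase, was the one of the 4 without overlap (-1.13, SE 0.23). Of 14 iron handling genes 3 rose, namely Hamp2, Tfrc and Smad7, by 0.73, 0.60 and 0.51. Scara5, a ferritin receptor on no list, fell 5.27-fold, with 3 of 6 CR-fed mice under the intensity of 20.

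Of 9 genes of metallothioneins, which bind zinc and copper, and of zinc transporters, 5 were lower and none higher (median -0.40), and 2 had a positive change. Mt2 lay at 9.18, 10.56 and 11.69 in CR and 10.90, 12.90 and 13.40 in MF (3.76-fold lower, SE 0.42, adjusted p = 0.00166). Mt1 lay at 8.03, 9.39 and 10.29 in CR and 9.43, 11.50 and 12.61 in MF (3.75-fold lower, SE 0.46). The groups of both overlapped, again with MF replicate 6 lowest. Slc39a14, an importer of zinc and iron, fell by 0.54. Mt1 and Mt2 are neighbours on chromosome 8, and their promoters are shown with matches to the metal response element, searched as TGCNCNC. The windows are chr8:94178839-94179088 for Mt1 and chr8:94172368-94172617 for Mt2, plus strand, RefSeq, GRCm38.p6, with matches on either strand in capitals and overlapping matches counted once.
Mt1: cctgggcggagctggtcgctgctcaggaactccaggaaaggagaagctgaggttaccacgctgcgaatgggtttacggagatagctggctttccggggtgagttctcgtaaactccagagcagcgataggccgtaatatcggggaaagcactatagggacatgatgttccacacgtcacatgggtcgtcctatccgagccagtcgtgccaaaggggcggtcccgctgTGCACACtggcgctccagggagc
Mt2: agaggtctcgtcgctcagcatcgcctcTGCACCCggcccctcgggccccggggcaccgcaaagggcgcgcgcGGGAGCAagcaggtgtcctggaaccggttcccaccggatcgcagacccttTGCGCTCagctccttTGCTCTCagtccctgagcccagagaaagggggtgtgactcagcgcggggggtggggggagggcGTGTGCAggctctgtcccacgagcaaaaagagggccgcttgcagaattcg
Within these windows Mt1 held 1 match and Mt2 held 5. Bases outside the windows, including those after the RefSeq start, were not searched, so these are not counts for the whole promoters. At least 1 stands in 44.4% and at least 5 in 0.231% of the 32851 promoters searched. Of the 7 list genes with a promoter, 6 held one in at least 1 of their promoters. A match in a promoter is a description of its letters and no evidence of binding.

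Complement and coagulation genes moved both ways, with 6 of 21 higher and 6 lower. The 6 higher became 2 without MF replicate 4, and 3 without CR replicate 4 or 6 or with only the CR and MF arrays. C6 and C8a, parts of the membrane attack complex, fell 3.32- and 3.30-fold. C8a lay at 9.19, 9.78 and 10.18 in CR and 11.15, 11.40 and 11.69 in MF (-1.72, SE 0.13, adjusted p = 3.36e-10). Mbl1, a mannose-binding lectin, fell 1.80-fold, with 10.01, 10.12 and 10.30 in MF and 9.08, 9.28 and 9.52 in CR. Of 20 endoplasmic reticulum chaperone and stress genes, 5 fell and none rose, led by Creld2 (-1.01, SE 0.20) and Xbp1, the transcription factor of the unfolded protein response (-0.73, SE 0.11), both with groups apart. Of 13 heat shock genes, 5 fell and none rose, among them the co-chaperones Bag3 (-0.56, SE 0.16), Hspb8 (-0.50, SE 0.15) and Dnaja1 (-0.39, SE 0.07). The 5 became 3 without CR replicate 5 or 6 or MF replicate 3 or 4, 3 after median centring and 2 with only the CR and MF arrays.

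Of 25 autophagy, lysosome and sirtuin genes, 2 rose and 6 fell, and the share that rose is near the 8.57% of all genes tested. The autophagy genes Ulk2, Atg7, Gabarapl1 and Atg12 fell by 0.46, 0.39, 0.38 and 0.34, and Atg7 alone of them overlapped between groups. Of 20 cell cycle and p53 genes, 2 rose and 3 fell, near the shares over all genes tested (8.57% and 11.2%). The 3 became 1 without CR replicate 1 or 3 or MF replicate 5, and 1 after median centring. Ccng1, a p53 target, fell 1.45-fold with groups apart, and E2f8, a repressor that acts in polyploid liver cells and stands on no list, fell 3.96-fold (-1.99, SE 0.21), from 6.77, 7.59 and 7.65 to 5.14, 5.48 and 5.66. Rarres1, a retinoid-responsive gene also on no list, fell 11.0-fold (-3.46, SE 0.22, adjusted p = 1.03e-11). The remaining largest changes on no list were Slc15a5 (-2.07), a member of the peptide transporter family, and Slc8a1 (-2.79), the sodium and calcium exchanger, whose change was -1.42 when all its probe sets were averaged. Among the gains they were Sytl5 (2.96), a partner of Rab27 in vesicle traffic, Chrna4 (2.53), a nicotinic receptor subunit, and Acpp (1.83), an acid phosphatase.

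**Figure D5:**
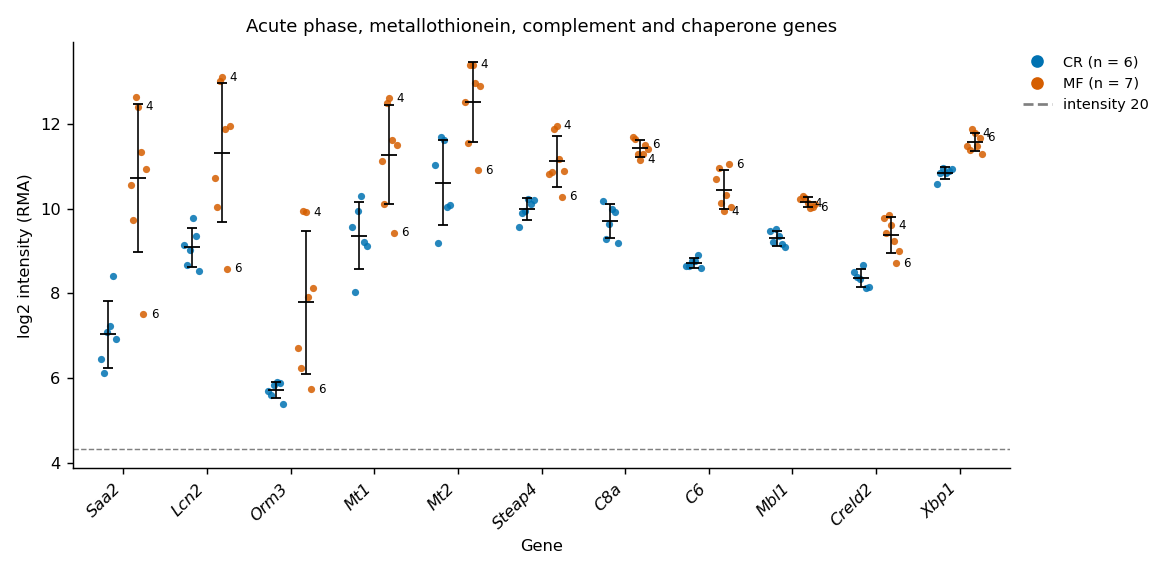
Genes of the acute phase, metallothioneins, complement and endoplasmic reticulum stress, with 1 point per mouse on a log2 intensity axis; black bars give the mean and SD of 6 CR- and 7 MF-fed mice, digits mark MF replicates 4 and 6, and the dashed line marks an intensity of 20. MF replicate 6 lies within the CR range for Saa2 (7.51) and Lcn2 (8.58), while C8a in CR (9.19 to 10.18) lies below every MF-fed mouse (11.15 to 11.69).

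Of 17 interferon response genes, 1 rose and 4 fell, the 1 becoming 2 without CR replicate 4 and the 4 becoming 7 without MF replicate 2. With all mice, the share that rose is below the 8.57% of all genes tested. Ifit1, Rsad2, Oasl1 and Irgm1, interferon-induced defence genes, fell 2.05-, 1.90-, 1.63- and 1.58-fold, the last with groups apart. All 8 MHC class II genes had a negative change (median -0.37), but none was called, and 2 had an unadjusted p under 0.05. H2-Eb1, an antigen-presenting chain, showed -0.55 (SE 0.27, adjusted p = 0.156). Of 24 extracellular matrix genes, 1 fell and none rose. It was Mmp2, a matrix-degrading protease (-0.49, SE 0.15), and the count was 0 without CR replicate 4 or MF replicate 3, and 4 without MF replicate 1.

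Markers of the other cells in liver tissue were measured beside these groups. In tissue RNA, fewer cells of a type and less RNA per cell cannot be told apart. Of 21 macrophage and monocyte markers, 5 were higher and none lower (median 0.25). Summed intensities were 8158 to 11994 in CR and 6134 to 10251 in MF. In 5 of the 21 the change was negative. At an unadjusted p under 0.05, 10 were higher and 2 lower. Limma called 0 to 2 lower when single mice were left out. The 4 widest of the calls belong to resident Kupffer cells and macrophages, namely Cd163, Timd4, Clec4f and Csf1r, at 0.82, 0.64, 0.48 and 0.45. Clec4f lay at 9.79, 9.89 and 10.18 in CR and at 9.23, 9.46 and 9.67 in MF. These calls ran upward while those of the acute phase list ran downward, and the part of macrophages in the other results was not tested. Of 9 markers of lipid-associated macrophages, 6 had a negative change and the median was -0.27. Limma called 2 higher, Fabp5 (1.31, SE 0.24) and Cd9 (0.41, SE 0.11), and none lower. At an unadjusted p under 0.05, 2 were higher and 2 lower, and the sums overlapped at 1105 to 1733 in CR and 786 to 1705 in MF.

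Among 8 T and NK cell, 6 B cell, 2 neutrophil and 1 exocrine pancreas markers tested limma called none, and 1 T or NK cell marker had an unadjusted p under 0.05. Summed intensities overlapped between groups for each, at 332 to 421 against 306 to 673 for T and NK cells and 182 to 258 against 161 to 244 for B cells. The largest T cell change was that of Cd4 (-0.35, SE 0.14, adjusted p = 0.0838), and it was called without MF replicate 3 (-0.43), with array weights (-0.40) and with only the CR and MF arrays (-0.35), also with a variance per group. Of 12 endothelial markers, 2 were higher and 1 lower. The 2 became 1 without CR replicate 1 or 6 or MF replicate 2 or 3, the 1 became 0 without CR replicate 2, 4 or 5 or MF replicate 3, 4 or 5, and Kdr kept its call at 0.28. Of 10 stellate cell markers only Hgf was called. Of 5 cholangiocyte markers Krt7 was higher (0.38, SE 0.09), and 2 were without MF replicate 4. Of 4 adipocyte markers Car3, which hepatocytes express as well, fell by 0.67, with summed intensities of 4267 to 6376 in CR and 8225 to 9526 in MF. Both erythroid markers were called, in opposite directions, Alas2 at -1.34 (SE 0.14) and Slc4a1 at 0.48 (SE 0.09). Of 8 hepatocyte markers, 2 were higher, Tat and Ttc36, while the sums were 63795 to 67440 in CR and 56721 to 61983 in MF. Of 12 pericentral genes 2 were lower, a count of 0 without CR replicate 4, with only the CR and MF arrays or after median centring, 4 without MF replicate 4 and 5 without CR replicate 5.

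Some of these genes had been picked for Q-PCR in the study. Of those 12 genes, 7 were lower in CR and none higher. The choice was made on mice of these diets, so the count is not independent evidence of a direction. The 7 are Cidec, Cidea, Mogat1, Saa2, Lcn2, Mt2 and the chemokine Ccl3, and Ccl3 (-0.69, SE 0.25, adjusted p = 0.0464) lost its call without any of CR replicates 1, 2, 3, 4 and 5 or MF replicates 1, 3, 4 and 7. Not called were the liver hormone Fgf21 (-0.30), Timp1 (-0.11), Ccl2 (-0.10) and the macrophage marker Cd68 (-0.04). Adgre1, the F4/80 macrophage antigen, at 0.40 (SE 0.15, adjusted p = 0.0638), was called without CR replicate 3 (0.47) or MF replicate 3 (0.45) or 7 (0.47) and after median centring (0.43) or cyclic loess (0.43).

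Averaged over all genes tested, the mice of the 2 diets did not differ measurably in their spread. The mean absolute deviation of a mouse from its group over all genes was 0.139 ± 0.0195 log2 units in CR (SD, n = 6) and 0.153 ± 0.033 in MF (SD, n = 7). The 2-sided permutation test over all 1716 splits gave p = 0.410 for the difference of -0.0136, and the smallest p it can give is 0.001166. Each deviation is from its own group's mean, so values within a group are not independent and this p is approximate. Without MF replicate 4, the mouse with the highest value (0.206), the difference was -0.0015. Single genes were less even. A range over 3 log2 units within a group occurred in 25 genes in MF and in 5 in CR. Of the 25, MF replicate 4 held the highest value in 13 and the lowest in 5, and MF replicate 6 the highest in 4 and the lowest in 14. Both mice were thus at opposite ends of Cidec, Lcn2 and Mt1, with replicate 6 lowest and replicate 4 highest, while for Hsd3b5 and Serpina4-ps1 replicate 4 was lowest and replicate 6 highest.

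For a few genes the changes against C are set side by side. Cyp4a12a differed by -6.77 between CR and C and by -0.45 between MF and C, Acly by 1.82 and -0.14, and Rarres1 by -3.69 and -0.23. A few named genes had MF and C further apart, such as Mogat1 (-1.12 in CR against C, 0.77 in MF against C), Got1 (0.78 and -0.60), Lepr (1.65 and -0.62) and Slc22a27 (3.88 and 1.06). None of the differences between MF and C was called.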

How the data were processed

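Livers of 27 mice (7 C, 6 CR, 7 MF and 7 INT) were hybridised by the authors, 1 array per mouse. Groups and replicate numbers come from the sample labels. The deposited values are log2 intensities, which the authors normalized together by RMA (background correction, quantile normalization and a summary per probe set). The array's genome build is not given in the sources used here, so gene positions other than RefSeq promoters (GRCm38.p6) are not given. Of 35556 probe sets, 21218 named 1 gene, 1881 several and 12457 none, and those naming several or none were left out. RefSeq gave the symbol of 18790 of 18820 genes. The 1386 genes with more than 1 probe set kept that of highest mean. The table holds the probe sets of the array's maker, whereas Entrez-based ones are named in the methods.

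All 27 arrays were fitted together in R 4.3.3 by limma 3.58.1, with eBayes run without a variance trend and without robust estimation. The contrast was CR minus MF, with Benjamini-Hochberg adjustment over 13603 genes at 0.05. The minimum, an intensity over 20 on at least 5 arrays, follows the methods, which name no test across all genes. The code was tested on simulated data. Python 3.11.15, numpy 2.4.6, pandas 2.3.3, scipy 1.17.1 and matplotlib 3.10.9 gave the lists, the permutation test, the promoter search and the figures. Arrays carry no read depth, and the number of mice and the signal over background limit the precision. Quantile normalization forces a common distribution on the arrays, so a shift of most genes one way would not be seen. The closest pair of arrays shared 138 identical values, so each counted as 1 replicate.

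The comparison, the 46 gene lists and the promoter motifs were chosen with earlier results of these data known. Lists were described by counts and medians, without a test of the list. They held 802 genes, of which 710 had a value and 688 were tested. Named genes are the 15 called genes that rose most and the 15 that fell most with no overlap of the groups, up to 4 called members per list of largest change (or the 2 largest where none was called) and the 12 genes of the study's Q-PCR, 166 in all. Others are marked as picked after their values were seen. Other filters, scalings, variance models, samples, blocks and tests were tried.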

Additional observations from a re-analysis of the deposited data

Results flagged for a closer look

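Among 332 tests of the highest or lowest mouse in a group of the 166 named genes, 12 stood far from the nearest of the other mice relative to the range of the group, where chance gives about 1 in 20 groups. The 12 are fewer than that rate would give over 332 tests. In CR the single high mice were replicate 3 for Acsl4 (10.5924, next 10.3065) and replicate 6 for Ccl5 (7.0687, next 6.7189). The single low CR mice were replicate 5 for Krt7 (5.1479, next 5.2985), replicate 4 for Ndufb8 (9.1908, next 9.312), replicate 1 for Nipal1 (8.2863, next 8.8776) and replicate 1 for Xbp1 (10.5716, next 10.833). In MF, replicate 4 was high for Ccl5, a T cell chemokine (8.2371, next 7.0196), and low for Cyp4a12b (9.8176, next 10.8084), Smad7 (6.6087, next 6.9274) and Ugt3a1 (10.0629, next 10.5207). MF replicate 1 was low for Cyp2f2 (12.8397, next 12.9067) and MF replicate 2 for Irs2 (7.0333, next 7.3623). All values are log2 intensities.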

How the results depend on the processing

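The 2690 calls (1166 higher, 1524 lower) lay between 2485 and 3016 under other filters, scalings, variance models and blocks, and were 2190 (896 and 1294) with only the CR and MF arrays, or 2229 with a variance per group. With those arrays alone the fatty acid synthesis genes called lower went from 2 to 1, the hepatocyte markers called higher from 2 to 1, and the apolipoproteins and the secreted hormones called higher from 1 to 0 each. Leaving out 1 mouse gave 2232 (without CR replicate 4) to 2761 (without MF replicate 6) calls. The labels' replicate numbers did not pair the mice (r of -0.14 to 0.18 over 6 pairs, 1 mouse of 6 closest to its own number), and the replicate block gave 2654 calls (1182 and 1472). The interquartile range of the arrays was 3.59 to 3.70 in replicates 1 to 4 and 3.70 to 3.75 in replicates 5 to 7. Within replicates 1 to 4, 1977 genes were called (809 and 1168), and within replicates 5 to 7, with 5 arrays of CR and MF, 331 (176 and 155). All 2690 genes had the same sign within the former and 2679 within the latter. They were called on these same mice, so the shared sign is largely built in and is no replication. A one-way test over the diets followed by Tukey's, which the methods name for other measures, gave 1455 (628 and 827) after Benjamini-Hochberg adjustment and 2718 (1177 and 1541) without. Of 152 called named genes, 109 were called under every alternative other than replicates 5 to 7, where 51 were. All 152 kept their sign in all 30 settings, but several settings, such as other filters or tests, leave the log2 fold change itself unchanged. Leaving out a single mouse ended the call of 19: Acot1, Acot13, Angptl8, Apom, C8b, Ccl3, Cyp2e1, Cyp7a1, Gadd45a, Hsp90aa1, Lect2, Lyve1, Mmp2, Ndufb3, Oit3, Per3, Slc22a5, Slc30a10 and Vldlr. Genes that were not called could turn sign. Within replicates 5 to 7, Ccl2 was at 0.0892, Ccl5 at 0.1234, Cd68 at 0.2295, Csf3r at 0.0674 and Timp1 at 0.0477. With array weights, Ccl2 was at 0.0396, Cd68 at 0.0427 and S100a9 at 0.0329. Without single mice the ranges were -0.1933 to 0.1041 for Ccl2, -0.1471 to 0.1107 for Cd68, -0.1433 to 0.0548 for S100a9 and -0.1718 to 0.0022 for Timp1. The difference in spread stayed between -0.0226 and -0.0015 when each mouse was left out, with no call. Levels under an intensity of 20 are background, and changes resting on them are bounds at best.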
